A study of Mus musculus with 6 samples.

Results

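Expression of 9 CC and CXC chemokine genes was followed in mouse bone marrow progenitor cells carrying mutants of CSF3R, the cell-surface receptor of the neutrophil growth factor G-CSF. The genes were Ccl2, Ccl3, Ccl4, Ccl5, Ccl6, Ccl9, Cxcl1, Cxcl2 and Cxcl10, taken by symbol from the 23417 rows of the deposited gene table that carry a usable symbol, and each had 1 row. Kit+ cells from wild-type C57BL/6 mice were selected with CD117 beads, held in FLT3, IL-6, IL-3 and mSCF, and given retrovirus that carried either no receptor (vector) or CSF3R with the membrane-proximal change T618I, the truncation W791 or Q741, or T618I together with Q741 or W791. Transduced cells were sorted and kept overnight in the same cytokines before RNA was taken, so every library shares that cytokine exposure. Each construct had 1 library, no construct carried the unmutated receptor, and the labels do not tie libraries to animals. The series' design text sets constructs that contain T618I (alone or with either truncation, n = 3), described as leukemogenic, against the truncations alone (W791 and Q741, n = 2), described as not. The comparison asks how expression differs between those classes. Every SD and p-value therefore measures the spread between different constructs, library noise included.

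Chemokines are small secreted proteins that direct leukocyte movement through G protein-coupled receptors. CC chemokines carry adjacent cysteines near the amino terminus, and CXC chemokines have 1 residue between them. Many inflammatory chemokine genes respond to NF-kB or interferon signalling. In bone marrow cultures they are made by monocytes, macrophages, mast cells, basophils and granulocytes, among others.

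Levels are given in FPKM, fragments scaled to transcript length and to library size, which sets genes of different length on a common scale. Library size was not stated and was approximated from the step size of low values as about 40500000 fragments for vector and 21200000 to 25300000 for the others. The fit to these steps was weakest for vector, and whether a multiple of the true size fits as well was not checked. Kit was at 12.6 to 34.5 FPKM, so the transcript of the antigen used for selection was present in every library. Cd3e, which defines T cells, was at 0.0327 FPKM or less. The 11 neutrophil markers summed to 19817, 35929 and 27043 FPKM in the T618I, T618I/Q741 and T618I/W791 libraries, against 2595 to 3762 in the libraries without T618I. S100a8 and S100a9 made up most of every sum. With T618I alone, Camp and Ltf stood at 4.25 and 23.3 FPKM, below every library without T618I, and the other markers stood above all of those libraries. The 17 monocyte and macrophage markers summed to 4544 FPKM with T618I/W791 and to between 7491 and 9766 in the other 5 libraries. In bulk RNA, fewer cells of a type and less RNA per cell cannot be told apart.

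The genes lie on 2 chromosomes. Ccl2 (82035571 to 82037453), Ccl5 (83525778 to 83530518), Ccl9 (83572919 to 83578636), Ccl6 (83587882 to 83593087), Ccl3 (83647844 to 83649355) and Ccl4 (83662584 to 83664683) are on chromosome 11 of mm10. Cxcl1 (90891241 to 90893115), Cxcl2 (90903871 to 90905938) and Cxcl10 (92346638 to 92348889) are on chromosome 5. Some overlap a gene on the opposite strand in GENCODE M21, and use of strand in the authors' quantification was not stated in the labels. The partner of Ccl6, E230016K23Rik, was at 0.295 to 0.712 FPKM, and that of Cxcl10, Art3, at 0.0909 FPKM or less. Ccl2 overlaps Gm17268, which has no row under that symbol, so its value was not analysed here.

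RefSeq promoter windows of GRCm38.p6, the assembly that mm10 names, were found for 6 of the 9 genes. The 170 bases before each transcription start are shown so that these promoters can be set side by side. The part of these letters in the expression levels was not tested. They are chr5:90891075-90891244 (plus strand) for Cxcl1, chr5:90903729-90903898 (plus) for Cxcl2, chr5:92348890-92349059 (minus) for Cxcl10, chr11:83578637-83578806 (minus) for Ccl9, chr11:83649379-83649548 (minus) for Ccl3 and chr11:83593088-83593257 (minus) for Ccl6. Each reads 5′ to 3′ and ends at the base before the start that RefSeq gives, which for Cxcl1 and Cxcl2 lies inside the GENCODE gene. In them capitals mark matches to the NF-kB consensus or to an interferon-response-like core.
Cxcl1: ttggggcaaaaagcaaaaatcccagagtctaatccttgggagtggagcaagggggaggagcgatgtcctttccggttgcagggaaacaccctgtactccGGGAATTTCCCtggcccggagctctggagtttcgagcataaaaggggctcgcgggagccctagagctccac
Cxcl2: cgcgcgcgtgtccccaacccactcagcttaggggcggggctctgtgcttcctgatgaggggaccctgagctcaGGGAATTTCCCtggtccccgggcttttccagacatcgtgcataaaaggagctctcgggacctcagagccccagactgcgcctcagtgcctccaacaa
Cxcl10: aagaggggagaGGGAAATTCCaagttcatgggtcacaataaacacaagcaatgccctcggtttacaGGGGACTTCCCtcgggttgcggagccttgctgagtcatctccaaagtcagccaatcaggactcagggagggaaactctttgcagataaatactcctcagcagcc
Ccl9: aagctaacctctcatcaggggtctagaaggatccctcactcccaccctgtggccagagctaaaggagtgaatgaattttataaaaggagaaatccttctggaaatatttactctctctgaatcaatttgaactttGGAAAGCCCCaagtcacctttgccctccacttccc
Ccl3: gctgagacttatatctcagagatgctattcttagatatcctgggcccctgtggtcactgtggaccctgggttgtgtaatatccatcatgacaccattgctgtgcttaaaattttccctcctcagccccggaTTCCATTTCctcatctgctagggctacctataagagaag
Ccl6: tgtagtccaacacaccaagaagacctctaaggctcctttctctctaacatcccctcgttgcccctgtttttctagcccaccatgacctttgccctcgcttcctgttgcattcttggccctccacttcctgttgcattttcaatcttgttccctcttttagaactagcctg

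The NF-kB consensus was searched with its ambiguity letters on both strands over the 250 bases before the start. It matched in Cxcl1, Cxcl2, Cxcl10 and Ccl9 and not in Ccl3 or Ccl6, while 7.25% of all 32851 windows of that length held a match. In Cxcl1 the matches began 71 and 70 bases before the start and in Cxcl2 97 and 96 bases before it. The matches of each pair overlap. They were part of the longest run that the Cxcl1 and Cxcl2 windows share, 14 bases. The Ccl6 and Ccl9 windows shared a run of 13 bases, and the remaining pairs of windows runs of 7 to 10. Cxcl10 held a match from base -159 to base -150 and an overlapping pair that began at bases -104 and -103. The match of Ccl9 lay at bases -35 to -26. The interferon-response-like core GAAANNGAA, found in 7.13% of windows, matched in Cxcl10 at bases -213 to -205, outside the printed part, and in Ccl3 at bases -39 to -31. The STAT letters TTCNNNGAA, found in 7.02% of windows, matched in 0 of the 6. A match describes letters and not a bound site.

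Ccl6 and Ccl9 made up most of the summed level of these 9 genes in every library. The 31 other chemokine ligand genes, outside this sum, together ranged from 325 FPKM with Q741 to 2450 with T618I. The 9 genes summed to 799 FPKM in the vector library, to 964 and 968 in those of W791 and Q741, and to 574, 930 and 632 in those of T618I, T618I/Q741 and T618I/W791. That is between 0.123% and 0.220% of all FPKM in a library. Ccl6 and Ccl9 together held 75.9% to 78.2% of the sum in 5 libraries and 85.2% with T618I/Q741. By mean level over the 6 libraries the order was Ccl6 (469 FPKM), Ccl9 (168), Ccl3 (93.2), Ccl4 (37.7), Ccl2 (26.4), Cxcl2 (7.61), Ccl5 (4.45), Cxcl10 (4.33) and Cxcl1 (0.198). Each of the first 5 genes exceeded the next in 6 of 6 libraries. Cxcl2 exceeded Ccl5 in 5 of 6 libraries and Ccl5 exceeded Cxcl10 in 3 of 6, so the places of these genes were not separated by their spread.

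**Figure D1:**
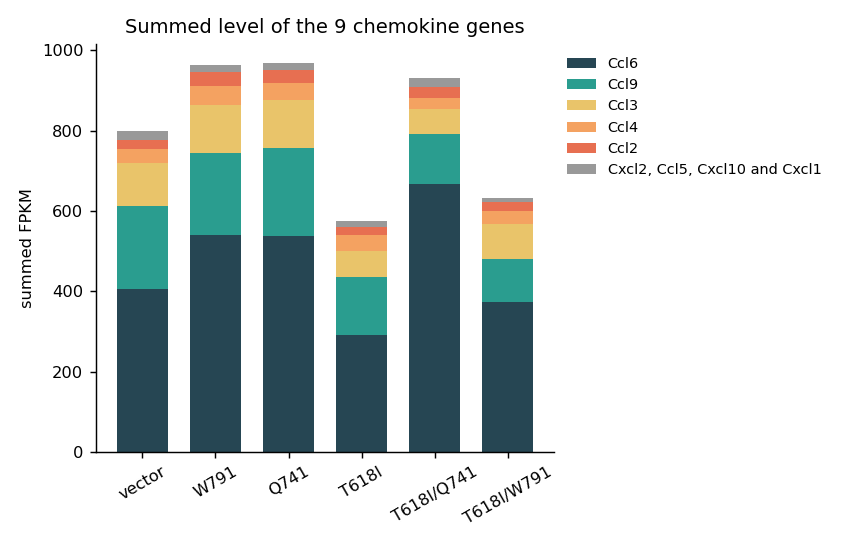
Summed FPKM of the 9 chemokine genes in each library, stacked by gene, with 1 library per construct. Ccl6 and Ccl9 fill most of every bar, and T618I/Q741 reaches 930 FPKM through its Ccl6, while T618I and T618I/W791 reach 574 and 632.

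Ccl9 was lower in every T618I-containing library than in any library without T618I. It encodes MIP-1 gamma, a CC chemokine of mouse myeloid cells that acts on CCR1. Ccl9 stood at 206 FPKM in the vector library, at 206 and 219 in those of W791 and Q741, and at 145, 126 and 107 in those of T618I, T618I/Q741 and T618I/W791. The libraries without T618I lay close together, and the T618I-containing ones lay below them with no overlap. The mean was 126 ± 18.7 FPKM (SD, n = 3) in T618I-containing libraries against 213 ± 9.16 in truncation libraries (SD, n = 2), 59.3% of that level. On the log2(FPKM + 1) scale the difference was -0.76 ± 0.17 (SE), and it did not pass when adjusted over all genes (limma, adjusted p = 0.304).

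Ccl6, the neighbour of Ccl9, had another order of libraries. It encodes C10, a CC chemokine found in rodents that also acts on CCR1. Ccl6 stood at 406 FPKM in the vector library, at 539 and 537 in those of W791 and Q741, and at 291, 666 and 374 in those of T618I, T618I/Q741 and T618I/W791. T618I/Q741 was the highest of the 6 libraries and T618I the lowest, so the T618I-containing libraries lay on both sides of the others. Their mean of 444 ± 197 FPKM (SD, n = 3) compared with 538 ± 1.14 in truncation libraries (SD, n = 2; limma, log2 difference -0.37 ± 0.35, adjusted p = 0.904). The ratio of Ccl6 to Ccl9 was 1.98 with vector, 2.01 with T618I, 2.61 with W791, 2.45 with Q741, 5.27 with T618I/Q741 and 3.49 with T618I/W791.

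Ccl3 and Ccl4, which encode MIP-1 alpha and MIP-1 beta, are neighbours on chromosome 11. Both proteins attract monocytes and other leukocytes, and CCL3 acts on CCR1. Ccl3 stood at 107 FPKM in the vector library, at 119 and 121 in those of W791 and Q741, and at 63.6, 61.7 and 85.9 in those of T618I, T618I/Q741 and T618I/W791. All T618I-containing libraries lay below all others, and T618I/W791 lay nearest to them. The difference from truncation libraries was -0.78 ± 0.19 on the log2 scale (SE, limma adjusted p = 0.340), with T618I-containing libraries at 58.5% of the truncation mean. Ccl4 stood at 35.7 FPKM in the vector library, at 46.7 and 42.2 in those of W791 and Q741, and at 39.5, 28.6 and 33.4 in those of T618I, T618I/Q741 and T618I/W791. Its T618I-containing values lay below both truncation values but on both sides of vector (log2 difference -0.39 ± 0.18, limma adjusted p = 0.614). The ratio of Ccl3 to Ccl4 was 1.61 with T618I and between 2.16 and 3.0 in the other libraries.

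Ccl2 encodes MCP-1, the ligand of CCR2 that draws monocytes. It stood at 20.8 FPKM in the vector library, at 35.4 and 30.3 in those of W791 and Q741, and at 22.1, 27.2 and 22.6 in those of T618I, T618I/Q741 and T618I/W791. The truncation libraries were the highest, and vector was the lowest. T618I-containing libraries were at 24.0 ± 2.85 FPKM (SD, n = 3) against 32.9 ± 3.61 (SD, n = 2), a log2 difference of -0.44 ± 0.16 (SE, limma adjusted p = 0.507). Against vector the same libraries differed by 0.19 ± 0.20 (SE, limma adjusted p = 0.955). After median-ratio scaling of the libraries, the Ccl2 values of T618I-containing and truncation libraries overlapped.

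Ccl5 encodes RANTES, a ligand of CCR1 and CCR3. It stood at 9.37 FPKM in the vector library, at 3.92 and 3.02 in those of W791 and Q741, and at 2.78, 6.16 and 1.46 in those of T618I, T618I/Q741 and T618I/W791. Vector was the highest library, T618I/Q741 came next, and the remaining libraries were at less than 4 FPKM. At these levels the values correspond to roughly 14.2 fragments with T618I/W791, 25.5 with T618I and 175 with vector. Its mean was 3.47 FPKM in both classes, with SDs of 2.43 (n = 3) and 0.634 (n = 2), and the log2 difference was -0.13 ± 0.45 (SE, limma adjusted p = 0.994). The 11 T and NK cell markers summed to between 17.3 and 25.7 FPKM, of which Nkg7 made up most, and Cd3d, Cd3e and Cd3g were each at 0.141 FPKM or less.

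Cxcl10 had the widest class difference among the tested members. It encodes IP-10, an interferon-induced ligand of CXCR3. Cxcl10 stood at 8.52 FPKM in the vector library, at 4.92 and 6.01 in those of W791 and Q741, and at 2.31, 1.15 and 3.09 in those of T618I, T618I/Q741 and T618I/W791. The groups with and without T618I did not overlap, and the 7.40-fold range from vector to T618I/Q741 was the widest of the members with a value in every library. The mean was 2.18 ± 0.974 FPKM in T618I-containing libraries (SD, n = 3) against 5.46 ± 0.774 in truncation libraries (SD, n = 2), a log2 difference of -1.07 ± 0.30 (SE, limma adjusted p = 0.397). The lowest value rested on roughly 37.1 fragments.

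Cxcl1 and Cxcl2 encode KC and MIP-2, ligands of CXCR2 that attract neutrophils. Cxcl2 stood at 4.84 FPKM in the vector library, at 8.20 and 8.06 in those of W791 and Q741, and at 7.62, 13.03 and 3.93 in those of T618I, T618I/Q741 and T618I/W791. The double mutants were the highest and the lowest of the 6 libraries, and the class difference was -0.12 ± 0.43 on the log2 scale (SE, limma adjusted p = 0.995). Cxcl1 was at or near the limit of detection, at 0.131 FPKM in the vector library, at 0.415 and 0.341 in those of W791 and Q741 and at 0.135 and 0.165 in those of T618I and T618I/Q741, and was listed at 0 with T618I/W791. These values correspond to roughly 2.5 to 7.5 fragments in the libraries where it was seen, and Cxcl1 did not pass the filter on low values.

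**Figure D2:**
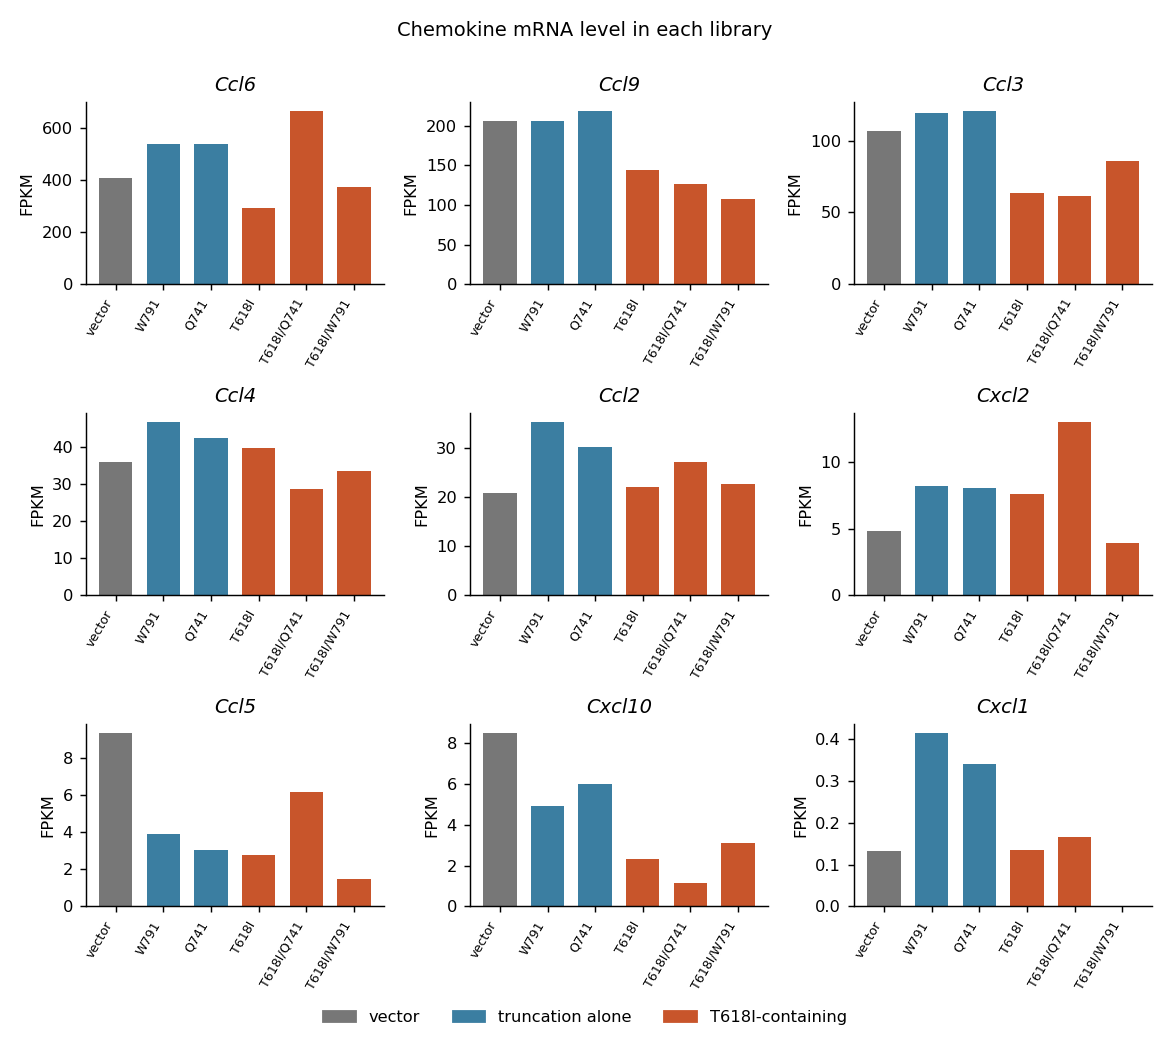
FPKM of each chemokine gene in the 6 libraries, 1 bar per library, with a separate axis from 0 for each gene and colour for the class of construct. Ccl9, Ccl3 and Cxcl10 are lower in all T618I-containing libraries than in all others, while Ccl6 and Cxcl2 are highest with T618I/Q741, at 666 and 13.03 FPKM.

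Of the 9 members, 8 reached 1 FPKM in at least 2 libraries and were tested among 11188 genes. At limma adjusted p below 0.05, 0 of the 8 were called between T618I-containing and truncation libraries, where 0.197% of all genes were called. Unadjusted p lay below 0.05 for Ccl2, Ccl3, Ccl9 and Cxcl10, each lower; this held for 4.86% of all genes in that direction. T618I-containing values lay below both truncation values without overlap for 5 of the 8, namely Ccl2, Ccl3, Ccl4, Ccl9 and Cxcl10, against 21.1% of all genes. The difference was below 0 for 8 of 8, against 65.3% of all genes. The median over the 8 was -0.42, and that over all tested genes was -0.07. After median-ratio scaling 8 of 8 were still below 0 where 49.3% of all genes were, and 4 were lower without overlap (Ccl3, Ccl4, Ccl9 and Cxcl10), against 13.6% of all genes.

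When vector was counted with the truncations, which compares T618I present (n = 3) with T618I absent (n = 3) and uses the same T618I-containing libraries, 0 of the 8 were called by limma, with 0.867% of all genes called. Unadjusted p lay below 0.05 for Ccl3, Ccl9 and Cxcl10, each lower, against 9.80% of all genes. Ccl3, Ccl9 and Cxcl10 were also lower without overlap, against 18.2% of all genes, or 11.5% after median-ratio scaling. Their log2 differences were -0.73 ± 0.15 for Ccl3 (SE, limma adjusted p = 0.0992), -0.74 ± 0.13 for Ccl9 (adjusted p = 0.0704) and -1.25 ± 0.28 for Cxcl10 (adjusted p = 0.109). Ccl3 passed in 1 alternative, with T618I/W791 left out (limma adjusted p = 0.0222), and over the alternatives its adjusted p ranged from 0.0222 to 0.356. The difference was below 0 for 7 of the 8, all but Cxcl2, against 65.8% of all genes. Against vector alone, with the spread of its lone library taken from the rest, 0 of the 8 were called and 0.161% of all genes were, with Cxcl10 at -1.63 ± 0.37, Ccl5 at -1.35 ± 0.57 and Ccl9 at -0.71 ± 0.22 (SE, limma adjusted p = 0.331, 0.617 and 0.452).

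**Figure D3:**
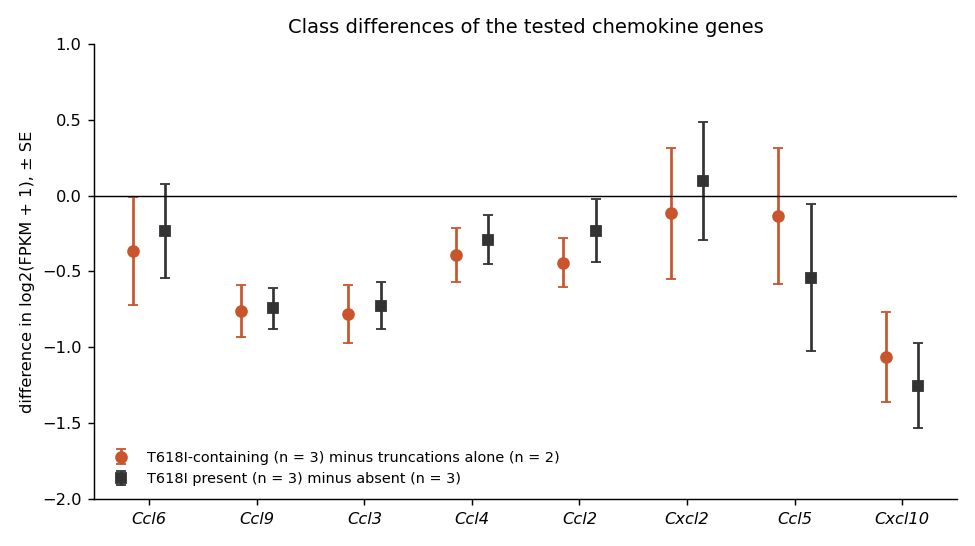
Difference in log2(FPKM + 1) with its SE for the 8 tested chemokine genes, for T618I-containing minus truncation libraries (circles) and for T618I present minus absent (squares); both use the same T618I-containing libraries. Ccl9, Ccl3 and Cxcl10 lie furthest below 0, and 0 of these 8 genes passed the adjusted threshold in either comparison.

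Single libraries were set side by side by a 2-fold threshold on the log2(FPKM + 1) scale, with no replicate check, and the same library serves in several pairs. Vector carries no introduced receptor, so a pair with vector sets an added mutant receptor against none added, both in wild-type cells. In the pair of T618I and vector, T618I and the presence of an introduced receptor cannot be told apart. Between T618I and vector Ccl5 (-1.46) and Cxcl10 (-1.52) were past it, with 4.0% of all genes. Between T618I/Q741 and Q741 Cxcl10 (-1.70) was past it, with 6.62% of all genes, and Ccl3 was just inside (-0.96). Between T618I/W791 and W791, 0 of the 8 members were past it, with 6.61% of all genes, and Ccl5 (-0.9999) and Ccl9 (-0.94) were just inside. Ccl9 and Ccl3 were lower in all 3 of these pairs, by 0.50, 0.79 and 0.94 for Ccl9 and by 0.74, 0.96 and 0.47 for Ccl3, in the order vector, Q741 and W791. Cxcl10 was lower by 1.52, 1.70 and 0.53.

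The other 5 tested members did not keep 1 direction over these 3 pairs of single libraries, and the differences were not tested. Ccl4 and Ccl2 were lower on both tails and higher only against vector. With T618I, Ccl5 was higher on Q741 (0.83) and lower on W791 and against vector. Cxcl2 was higher with T618I against vector (0.56) and on Q741 (0.63) and lower on W791 (-0.90). Ccl6 was higher on Q741 (0.31) and lower against vector (-0.48) and on W791 (-0.53). Ccl4 was higher against vector (0.14) and lower on Q741 (-0.54) and W791 (-0.47). Ccl2 was higher against vector (0.08) and lower on Q741 (-0.15) and W791 (-0.62). Between the double mutants, Ccl5 (1.54) and Cxcl2 (1.51) were more than 2-fold higher with T618I/Q741 than with T618I/W791, with 13.5% of all genes past that threshold. Ccl6 was 2.28-fold higher with T618I/Q741 than with T618I, the 1 member past the threshold in that pair, with 3.46% of all genes. Between T618I/W791 and T618I 0 members and 4.09% of all genes were past it. The truncations differed little from each other, with 0 members and 0.715% of all genes past the threshold, and the widest member difference was that of Ccl5 (0.29). Against vector Ccl5 was lower with W791 (-1.07) and with Q741 (-1.37), the 1 member past the threshold in each pair, where 0.572% and 0.974% of all genes were.

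**Figure D4:**
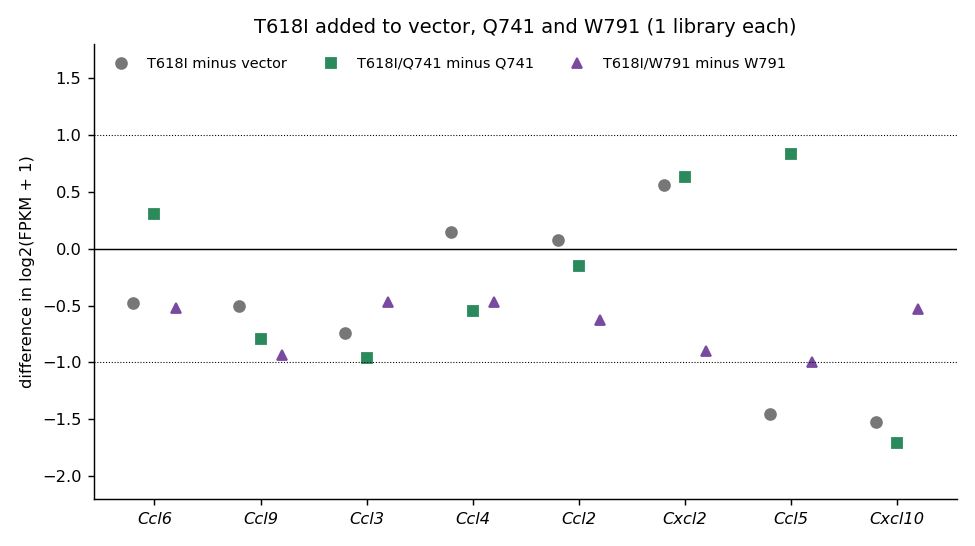
Difference in log2(FPKM + 1) of T618I minus vector (circles), T618I/Q741 minus Q741 (squares) and T618I/W791 minus W791 (triangles) for the 8 tested chemokine genes. Each side has 1 library, dotted lines stand at 2-fold, and vector carries no introduced receptor. Ccl9, Ccl3 and Cxcl10 lie below 0 in all 3 pairs, while the other 5 genes lie on both sides of 0.

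Of 31 other chemokine ligand genes, 10 passed the filter, 0 were called in either comparison, and 7 of the 10 were above 0 between T618I-containing and truncation libraries, with a median of 0.16. Over all tested genes 65.3% were below 0 in that comparison. The platelet chemokine genes Pf4 and Ppbp had the highest means. Pf4 stood at 1725, 904 and 943 FPKM in the T618I, T618I/Q741 and T618I/W791 libraries, against 409, 549 and 202 in those of vector, W791 and Q741 (limma, T618I present minus absent 1.67 ± 0.42, adjusted p = 0.129). Ppbp stood at 680, 472 and 417 FPKM against 242, 306 and 85.1 (1.46 ± 0.48, limma adjusted p = 0.210). The 8 megakaryocyte and platelet markers, Pf4 and Ppbp among them, summed to 2960, 1661 and 1627 FPKM in the T618I-containing libraries and to 850, 1090 and 392 in vector, W791 and Q741, and their part in these levels was not tested.

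Of 28 chemokine receptor symbols, 24 had a row and 12 were tested. Between T618I-containing and truncation libraries 0 were called, where 0.197% of all genes were. Between T618I present and absent, where 0.867% of all genes were called in either direction, 1 was called lower and 0 higher. That gene was Ccr6, the receptor of CCL20, at 0.391, 0.282 and 0.126 FPKM in the T618I, T618I/Q741 and T618I/W791 libraries, against 1.60, 1.41 and 1.32 in those of vector, W791 and Q741. It passed the filter on low values only through the libraries without T618I, where it is high, so these values are a description. Receptors of the members are named here by a choice made after their values were seen. Ccr1 stood at 121, 162 and 111 FPKM in the T618I, T618I/Q741 and T618I/W791 libraries, against 73.6, 106 and 109 in those of vector, W791 and Q741. Ccr2 stood at 277, 271 and 112 FPKM against 242, 314 and 340. Between T618I present and absent Ccr1 differed by 0.45 ± 0.21 and Ccr2 by -0.54 ± 0.36 (SE, limma adjusted p = 0.374 and 0.555). Cxcr2, the receptor for CXCL1 and CXCL2 on neutrophils, stood at 50.9, 102 and 29.3 FPKM against 11.5, 10.6 and 9.36 without T618I (2.25 ± 0.41, limma adjusted p = 0.0718). Cxcr3, the receptor of CXCL10, was below 1 FPKM in every library.

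Lists of NF-kB inflammatory and interferon response genes had medians below 0 between T618I-containing and truncation libraries. Over all tested genes the median was -0.07, with 65.3% of genes below 0. Among 28 tested NF-kB inflammatory genes, 25 were below 0 between T618I-containing and truncation libraries, with a median of -0.39 and 0 called in either comparison. The members of this list with the highest means were Zfp36, an mRNA-destabilizing factor, and Ier3, an immediate early gene. Zfp36 stood at 296, 429 and 103 FPKM in the T618I, T618I/Q741 and T618I/W791 libraries, against 212, 311 and 256 in those of vector, W791 and Q741. Ier3 stood at 178, 224 and 58.3 FPKM against 127, 163 and 140. For both, as for Cxcl2, T618I/Q741 was the highest library and T618I/W791 the lowest. The list did not share this order, and Il6, Nfkb1, Icam1, Rel and Cd40 were lowest with T618I/Q741. How many genes had either order was not counted. Among 24 tested interferon response genes, 21 were below 0 with a median of -0.49 and 0 called, and between T618I present and absent 22 were below 0 with 1 called lower. In that second comparison 65.8% of all genes were below 0 and 0.867% were called in either direction. The called gene was Gbp3, a guanylate-binding protein gene, at 3.99, 2.91 and 2.94 FPKM against 8.16, 7.09 and 7.42 (-1.01 ± 0.14, limma adjusted p = 0.0331). The part of these pathways in the chemokine values was not tested.

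Markers of cell types that can make these chemokines were summed in the same libraries. Between T618I-containing and truncation libraries 16 of 17 monocyte and macrophage markers were below 0 (median -0.48), 9 of 13 mast cell and basophil markers (median -0.34) and 8 of 8 dendritic cell markers (median -0.88), with 0 called in each list. Over all genes 65.3% were below 0 and 0.197% were called. Between T618I present and absent, where 0.867% of all genes were called, 1 mast cell and basophil marker (Il4) and 1 of 6 eosinophil markers (Prg3) were called lower (limma adjusted p = 0.0449 for Prg3). Il4 passed the filter through the libraries without T618I, where it is high, so its call is a description. Mast cell and basophil markers summed to 3509, 1043 and 758 FPKM in the T618I, T618I/Q741 and T618I/W791 libraries, against 2272, 2172 and 1953 with vector, W791 and Q741. That sum mixes genes of both directions, 9 below 0 and 4 above 0 in either comparison, and does not stand for 1 cell type. Dendritic cell markers summed to 1169, 1191 and 344 FPKM against 2044, 1619 and 1379. All 11 of 11 neutrophil markers were above 0 (median 2.55), with S100a8 and S100a9 called higher. In the T618I library, however, Camp and Ltf were below every library without T618I. Between T618I present and absent 7 of the 11 were called higher, namely S100a8, S100a9, Lcn2, Mmp9, Retnlg, Cd177 and Cebpe. Mmp9 and Retnlg passed the filter through the T618I-containing libraries, where they are high, so their calls are a description. For the rest, log2 differences ran from 1.55 for Cebpe to 3.66 for Cd177 (limma adjusted p from 0.00209 for S100a8 to 0.0310 for Cebpe). The part of cell composition in the chemokine values was not tested.

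The genes closest in pattern to each member over the 6 libraries were found by the root mean square difference of centred log2 values among 8844 genes. Ccl5 was closest to Ccr7, a receptor of homing dendritic cells and lymphocytes, at 0.13, followed by Fcgrt (0.21) and the interferon-induced gene Isg15 (0.22). Cxcl2 was closest to Fosl2, an AP-1 subunit gene (0.089), and the signalling inhibitor gene Socs1 (0.11) was also among the nearest. For Ccl9 they were Ero1lb (0.051), Eif4e3 (0.053) and Kynu (0.056), and for Ccl3 Slc39a6 (0.13), Txndc5 (0.14) and Zbed3 (0.15). For Cxcl10 they were Tagap (0.20), Rapsn (0.23) and Abcb1b (0.24), and for Ccl6 Lpl (0.18), Adora2b (0.18) and Capg (0.19). For Ccl2 they were Ppap2c (0.14), Dock1 (0.15) and Mpo (0.15), and for Ccl4 Cox16 (0.063), Arhgef10l (0.071) and Ndufc2 (0.073). With 6 values per gene, close patterns among so many candidates are a description only.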

How the data were processed

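RNA from 6 cultures was sequenced from stranded TruSeq mRNA libraries, per the labels' protocols. The authors deposited a table with a symbol and 6 values per row. Its header names no unit, and the values were read as FPKM, which the authors would have obtained from Cufflinks after TopHat on mm10, the tools and build in the submitters' processing notes. Of 23444 rows, 27 whose symbol had become a date were left out.

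Limma 3.58.1 in R 4.3.3 was fitted to log2(FPKM + 1) of 11188 genes that reached 1 FPKM in 2 libraries or more, with a mean-variance trend, 3 group means over all 6 libraries or T618I present against absent, and Benjamini-Hochberg adjustment over all genes (threshold 0.05). Fold changes of low genes are understated on that scale. The fits were tested on simulated data. The members and gene lists were chosen with earlier results of these data known. Named genes are all members, list genes past the threshold or otherwise the 2 highest of a list, and, for each member that reached 5 FPKM in at least 1 library, the 3 genes nearest in pattern among genes that did so too. Outside that rule, receptors of the members were named after their values were seen, and marker lists with no call are given by sums and counts. Fragment numbers are approximations from GENCODE M21 transcript lengths. Alternatives were another pseudocount (0.1), no filter, median-ratio scaling, no trend, leaving out each library, and pairing by receptor tail. Results that need some genes of these lists are not reported here.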

Additional observations from a re-analysis of the deposited data

Results flagged for a closer look

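Ccl5 and Cxcl2 are listed because pairs of libraries with and without T618I went in opposite directions, each past 1.5-fold. For Ccl5 the log2 difference was 0.83 on Q741 and -1.46 between T618I and vector, and the second minus the first came to -2.29. Vector carries no introduced receptor, so that second pair does not isolate T618I. Between Q741 and W791, where the log2 difference of Ccl5 was -0.9999, the difference of differences was 1.83. For Cxcl2 the log2 difference was 0.63 on Q741 and -0.90 on W791, a difference of 1.53. Each pair has 1 library with and 1 without T618I, so these differences were not tested.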

How the results depend on the processing

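Each construct had 1 library, which limits every test, and Cxcl1 was too low to be tested. The number of members called stayed at 0 between T618I-containing and truncation libraries and against vector under every alternative run. Between T618I present and absent it was 0 to 1 when single libraries were left out, the 1 being Ccl3 (-0.87) without T618I/W791, and 0 otherwise. With a replicate block on the receptor tail (3 pairs, T618I with vector as 1 of them) 0 members were called (Ccl3 adjusted p = 0.128, Ccl9 0.117, Cxcl10 0.110, limma). Vector carries no introduced receptor, so that pair is not matched by tail. With the 2 pairs that share a truncated tail, 0 were called between the classes. Ccl3, Ccl9 and Cxcl10 stayed below 0 throughout. Ccl2 also kept its direction, below 0 between the classes and between T618I present and absent, and above 0 against vector. Ccl4 and Ccl6 stayed below 0 between the classes. With single libraries left out, Ccl5 and Cxcl2 ranged from -0.55 to 0.23 and from -0.49 to 0.27 between the classes. Between T618I present and absent Ccl6 ranged from -0.57 to 0.0265 and Cxcl2 from -0.27 to 0.48. Against vector Ccl4 ranged from -0.20 to 0.0238 and Ccl6 from -0.30 to 0.30, and Ccl4 was at 0.0059 after median-ratio scaling. With a pseudocount of 0.1, the members past 2-fold numbered 2 between T618I/Q741 and Q741 (Ccl5 and Cxcl10), 2 between T618I/W791 and W791 (Ccl5 and Cxcl2), 2 between T618I/Q741 and T618I (Ccl5 and Ccl6, also 2 with median-ratio scaling) and 3 between the double mutants (Cxcl10 added; also 3 with median-ratio scaling, with Ccl6 added). A smaller pseudocount widens differences of low genes by construction, and the cause of the other shifts was not tested.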
